A study of Mus musculus with 2 samples.

Results

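The miR-34 and miR-449 seed family, the microRNA genes Mir34a, Mir34b, Mir34c, Mir449a, Mir449b and Mir449c, was measured in the mouse adrenal gland. The 6 members were picked by their GENCODE M21 symbols, matched to the Ensembl identifiers of the deposited tables, out of 2202 microRNA genes. The samples were whole adrenal glands of male B6CASTF1/J mice, the F1 hybrid of C57BL/6J and CAST/EiJ, at 36 days of age. They form a single group of 2 biological replicates with 1 library each, no treatment is named, and no second condition exists. The labels number the animals separately but give 1 donor record for both, so the spread between the libraries may be technical. The whole-gland RNA holds cortex, medulla, vessels and any attached tissue together.

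MicroRNAs guide Argonaute proteins to messenger RNAs through the seed, bases 2 to 8 of the mature strand, so genes with the same seed can share targets. The transcription factor p53 is known to activate Mir34a and the Mir34b and Mir34c cluster, and their products repress cell-cycle and survival genes such as cyclin-dependent kinases, Myc and Bcl2. Mir34b, Mir34c and the Mir449 genes are best known from multiciliated epithelium and from male germ cells, where they act redundantly, whereas Mir34a is found in many tissues.

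The mature strands are shown because the shared seed, in capitals below, is what defines the family. RefSeq (GRCm38.p6) lists 9 mature strands for 5 of the 6 hairpins, and these 5 hairpins have the same coordinates as the GENCODE genes. RefSeq entries for Mir449b and for the 5p strand of Mir34c were not in the table used. All 4 listed 5p strands carry the seed GGCAGUG, and none of the 1738 mature strands in the table carries it outside the family.
mmu-miR-34a-5p: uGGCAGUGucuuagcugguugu
mmu-miR-34b-5p: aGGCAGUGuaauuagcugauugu
mmu-miR-449a-5p: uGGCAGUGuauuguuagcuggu
mmu-miR-449c-5p: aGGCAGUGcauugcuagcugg

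Past the seed these strands differ. Compared base by base from the 5′ end without gaps, mmu-miR-449a-5p and mmu-miR-449c-5p matched at 18 of 21 positions, mmu-miR-34a-5p and mmu-miR-449a-5p at 15 of 22, and mmu-miR-34a-5p and mmu-miR-34b-5p at 11 of 22. The last value understates their likeness, since mmu-miR-34b-5p is longer (23 bases against 22) and both hold uuagcug past the seed at shifted positions. These counts therefore do not rank the pairs by likeness. The longest run of letters that any pair of these strands shared was 9 bases. The longest run that a listed strand shared with any of 1000 hairpins outside the family was 11 bases, for mmu-miR-34b-5p. No second copy of a listed strand, whose reads would fall outside the gene counts, was thus found among these hairpins. The 3p strands of the chromosome 9 pair have a seed of their own, AUCACUA, which no other listed strand has.
mmu-miR-34b-3p: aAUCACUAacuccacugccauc
mmu-miR-34c-3p: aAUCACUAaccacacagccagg

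In mm10, Mir34a (ENSMUSG00000065493.1) lies on the plus strand of chromosome 4 from 150068454 to 150068555. Its last 17 bases overlap an exon of Gm37795, a transcript of the same strand that has yet to be experimentally tested, and both mature strands end before that overlap (the 3p strand at 150068537). Mir34c (ENSMUSG00000065587.1, chromosome 9, 51103034 to 51103110) and Mir34b (ENSMUSG00000065492.1, 51103562 to 51103645) lie 451 bases apart on the minus strand, within an intron of Btg4, a gene of the opposite strand. Mir449c (ENSMUSG00000076146.1, chromosome 13, 113035983 to 113036091), Mir449b (ENSMUSG00000078027.1, 113037419 to 113037498) and Mir449a (ENSMUSG00000065575.1, 113037534 to 113037624) lie in introns of Cdc20b, on its strand. Cdc20b is itself known from multiciliated cells.

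Replicates 1 and 2 gave 4494857 and 2078824 sense reads in microRNA genes, or 36.6% and 20.1% of their reads. Levels are given in CPM, the reads of a gene when those of all microRNA genes in that library are scaled to 1000000, with exact Poisson 95% intervals that cover counting error only. A read spans a mature strand of about the same length for every member, so CPM was compared between genes without division by length, on the assumption that each strand was captured equally well. The counts belong to the hairpin and do not tell its 5p from its 3p strand.

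Mir34c was the highest member in both libraries, Mir34a came next, and Mir34b and Mir449a were close to each other about an order of magnitude lower. Mir449c was at the limit of counting and Mir449b was not counted. Of the 6 members, 4 had at least 10 counts in both libraries. Mir34a, the single-gene member activated by p53, had 1811 counts in replicate 1 and 1715 in the shallower replicate 2, equal to 403 CPM (385 to 422) and 825 CPM (786 to 865). Its mean was 614 ± 298 CPM (SD, n = 2), which ranked 114 of all genes.

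Mir34c had 2718 and 4218 counts, or 605 CPM (582 to 628) and 2029 CPM (1968 to 2091). Its mean was 1317 ± 1007 CPM (SD, n = 2), rank 74. The SD was nearly as large as the mean, so its level rests on which library is taken. Its neighbour Mir34b had 266 and 169 counts, or 59.2 CPM (52.3 to 66.7) and 81.3 CPM (69.5 to 94.5), with a mean of 70.2 ± 15.6 CPM (SD, n = 2) and rank 216. Mir34b varied least, for its mean, of the 4 well-counted members.

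Mir449a, the leading gene of the Cdc20b intron, had 387 and 120 counts, or 86.1 CPM (77.7 to 95.1) and 57.7 CPM (47.9 to 69.0). Its mean was 71.9 ± 20.1 CPM (SD, n = 2), rank 214. Mir449c had 2 counts in each library, or 0.445 CPM (0.0539 to 1.61) and 0.962 CPM (0.117 to 3.48). Mir449b had 0 counts in both, with exact Poisson intervals that reach 0.821 and 1.77 CPM in the same order. The floor of 3 counts at which a count of 0 is drawn is lower, at 0.667 and 1.44 CPM. Mir449c and Mir449b therefore could not be told apart at this depth.

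**Figure D1:**
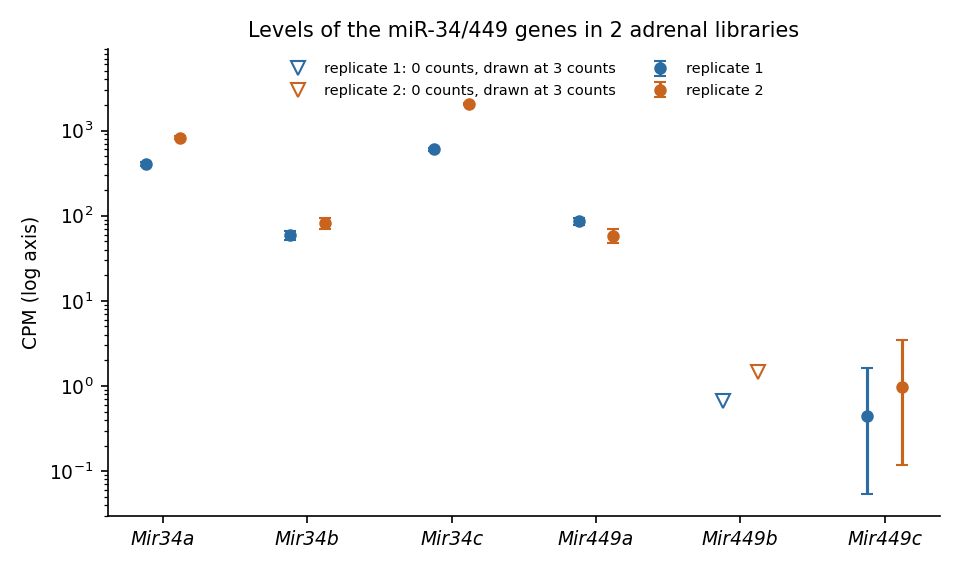
Level of each member in CPM (log axis) in replicate 1 (blue) and replicate 2 (orange), with exact Poisson 95% intervals. Open triangles stand for Mir449b, which had 0 counts and is drawn at the level of 3 counts; Mir34c and Mir34a sit above 400 CPM in both libraries, Mir34b and Mir449a between 57.7 and 86.1 CPM.

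In the order of mean CPM, the gap of 703 CPM between Mir34c and Mir34a was smaller than the sum of their SDs (1306 CPM), and the lower library of Mir34c lay below the higher library of Mir34a. Within each library, however, Mir34c was above Mir34a, 1.50-fold in replicate 1 (counting interval 1.41 to 1.59) and 2.46-fold in replicate 2 (2.32 to 2.60). Mir34a stood above Mir449a by 542 CPM, more than their summed SDs of 319 CPM, and every library of Mir34a was above every library of Mir449a. Mir449a and Mir34b differed by 1.67 CPM against summed SDs of 35.7 CPM, and their order turned between the libraries, with Mir449a over Mir34b at 1.45 in replicate 1 and 0.710 in replicate 2.

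The whole family held 0.115% of all gene counts in the first replicate (0.112 to 0.119, exact Clopper-Pearson 95% interval) and 0.299% in the second (0.292 to 0.307). The mean share was 0.207% ± 0.130 (SD, n = 2). Fewer cells of a type and less RNA per cell cannot be told apart in such whole-tissue shares. Mir34c made up 52.4% of the family's counts in replicate 1 and 67.8% in replicate 2, and Mir34a 34.9% and 27.6%. The chromosome 13 cluster, nearly all Mir449a, made up 7.50% and 1.96%. The family in this gland was thus mostly the miR-34 genes, in both libraries.

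Mir34a and Mir34c differed between the libraries in the direction opposite to Mir449a, and Mir34b was not called. Ratios are replicate 2 over replicate 1 after TMM scaling, a correction for unequal composition of libraries, for the 333 genes with at least 10 counts in both. The test was an exact binomial one, two-sided, with Benjamini-Hochberg adjustment over the 333 genes. It compares these 2 libraries and takes counting noise as the only error. It called 260 of the 333 genes (78.1%), with 131 (39.3%) at a higher level in replicate 2 and 129 (38.7%) in replicate 1. The 3 members called of 4 tested are a share close to that background.

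Mir34c had a log2 ratio of 1.56 (counting interval 1.49 to 1.63), a 2.95-fold higher level in replicate 2, with an adjusted p too small for the software to hold. In size, this ratio exceeded those of 88.6% of the tested genes. Mir34a had a log2 ratio of 0.85 (0.75 to 0.94), 1.80-fold higher in replicate 2 (exact binomial adjusted p = 2.25e-66). Mir34b, from the same cluster as Mir34c, had a log2 ratio of 0.27 (-0.01 to 0.56) and was not called (exact binomial adjusted p = 0.0688). Library-size scaling (0.46) and a correction for hairpin GC content (0.36) each brought it past the threshold.

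Mir449a had a log2 ratio of -0.76 (-1.07 to -0.46), 1.70-fold higher in replicate 1 (exact binomial adjusted p = 2.79e-07). The direction of all 4 members held with library-size scaling, which moved the median of all genes by 0.19, and with DESeq2 size factors, which moved it by -0.26 and left Mir34b at 0.02. With DESeq2 size factors, the calls over all genes split into 97 toward replicate 2 and 157 toward replicate 1. When the spread between the libraries was taken as the error instead, in an edgeR exact test with a biological coefficient of variation of 52.7%, no member was called (edgeR adjusted p = 0.988 for each of the 4) and none had an unadjusted p under 0.05. That test called 2 of the 333 genes (0.601%), with 17 at an unadjusted p under 0.05. Its error was estimated from the same pair of libraries whose difference it tests, so it can call few genes whatever their difference, and its lack of calls does not show that the members were equal.

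**Figure D2:**
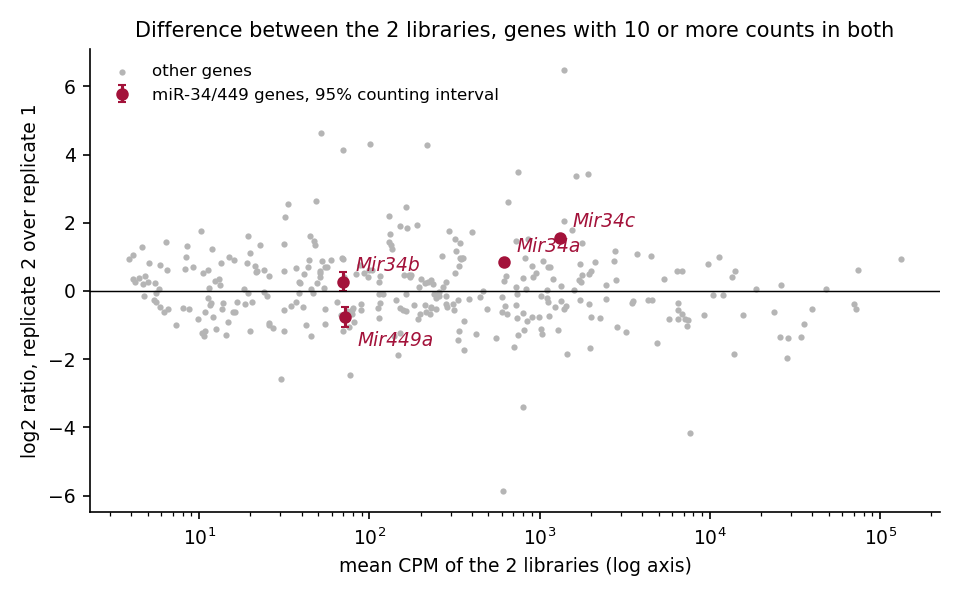
Log2 ratio of replicate 2 over replicate 1 against mean CPM (log axis) for the 333 tested genes (grey) and the 4 tested members (red, with 95% counting intervals). Mir34c (1.56) and Mir34a (0.85) lie above 0 and Mir449a (-0.76) below it, all within the cloud of other genes.

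Marker microRNAs of other tissues also differed between these libraries, and their part in the levels of the members was not tested. The 5 epithelial miR-200 genes had sums of 64.7 and 3576 CPM in replicates 1 and 2, with none at 0. The 3 pancreas acinar genes had 0 counts in replicate 1, all 3 at 0, and 326 CPM in replicate 2. The 3 erythroid genes summed to 15841 and 1091 CPM. Mir451a (log2 ratio -4.18) and Mir144 (-3.42) were called higher in replicate 1, while Mir486 (-0.33) was not called. Of 7 germ cell and testis genes, 4 were at 0 in replicate 1 and all 7 in replicate 2, with sums of 1.56 CPM (7 counts) and 0 CPM, and Mir880, Mir883a, Mir883b and Mir463 were at 0 in both. By sum, lists of types expected in the gland differed less: the 4 neuroendocrine genes summed to 48802 and 54157 CPM. Within that list Mir375 had a log2 ratio of 0.04, whereas Mir7b (-1.21), Mir7-1 (-0.69) and Mir7-2 (-0.40) were called higher in replicate 1. The endothelial Mir126a stood at 74830 and 64786 CPM. The 2 smooth muscle and pericyte genes summed to 46611 and 30221 CPM, nearly all of it Mir143, while Mir145a went the other way (1564 and 3998 CPM). The 4 leukocyte genes summed to 3118 and 3821 CPM. Of them, Mir142 (log2 ratio -0.52) and Mir155 (-0.56) were called toward replicate 1, Mir146 (0.26) and Mir150 (0.40) toward replicate 2. The 8 neuronal genes summed to 903 and 366 CPM, with 5 of the 8 at 0 in replicate 1 and 6 in replicate 2. Those at 0 in both were Mir9-2, Mir9-3, Mir124a-1, Mir124a-2 and Mir124a-3. Such numbered copies, and Mir7-1 and Mir7-2 above, have uncertain levels, since reads that fit several loci are outside the counts. For these genes a count of 0 does not show absence.

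Ratios between members of one library need no scaling, and the genes of one cluster are thought to share a primary transcript. Mir34c stood 10.2-fold above Mir34b in replicate 1 (exact conditional interval 9.01 to 11.6) and 25.0-fold above it in replicate 2 (21.4 to 29.3). The intervals do not overlap, and the ratio differed 2.44-fold between the libraries (two-sided Fisher's exact test, Benjamini-Hochberg adjusted p = 1.74e-18 over 126 pairs). Like the binomial test, this one compares 2 libraries and covers counting error only. These pairs are all neighbouring microRNA genes of one strand, at most 10 kb apart, with at least 1 count of each gene in each library. A change of ratio was common among them, with 84 of the 126 pairs (66.7%) called by the same test. In size, the change of the Mir34c and Mir34b pair ranked 38 of 126.

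In the Cdc20b intron, Mir449a stood 193.5-fold above Mir449c in replicate 1 (53.2 to 1603) and 60.0-fold in replicate 2 (16.3 to 501). The 2 counts of Mir449c per library leave both intervals wide, and the change between the libraries was not called (Fisher's exact test, adjusted p = 0.297 over the same pairs). A difference in level within a cluster was not rare either. The higher gene was at least 10-fold above the other in both libraries in 42 of the 126 pairs, and the median of the smaller of each pair's ratios was 4.08-fold. Some of these pairs hold numbered copies, such as Mir24-1, Mir29b-1 and Mirlet7c-2. Reads of such genes that fit several loci are outside the counts, so those ratios are uncertain as a background.

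**Figure D3:**
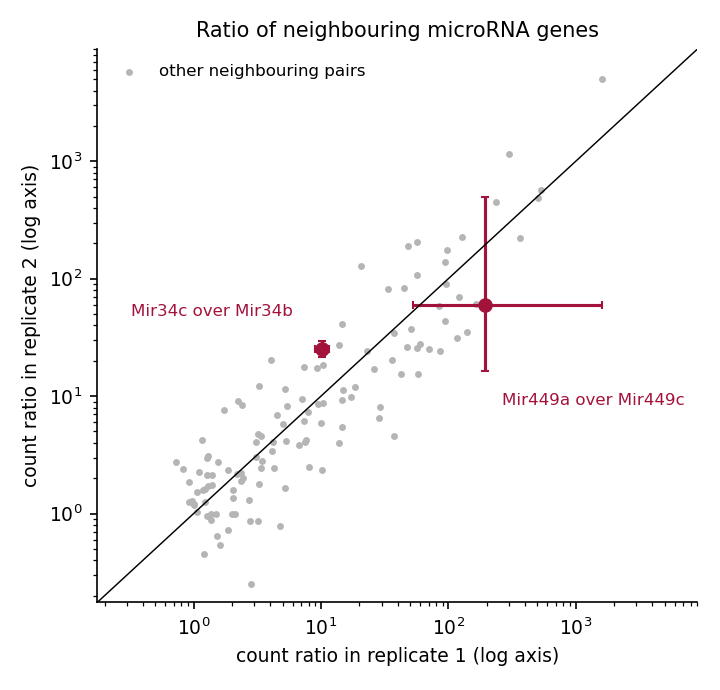
Count ratio of neighbouring microRNA genes in replicate 1 (horizontal, log axis) and replicate 2 (vertical, log axis), each pair as the gene with more counts over the other; the line marks equal ratios and bars are exact 95% intervals. Mir34c over Mir34b (10.2 and 25.0) lies above the line and Mir449a over Mir449c (193.5 and 60.0) below it, with wide intervals.

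Between clusters, the ratios of Mir34c and Mir34a to Mir449a moved the most of the 6 ratios among the well-counted members (Mir449a over Mir34b is given above). Mir34c over Mir449a was 7.02 in replicate 1 (6.31 to 7.83) and 35.2 in replicate 2 (29.3 to 42.5). Mir34a over Mir449a was 4.68 (4.19 to 5.24) and 14.3 (11.9 to 17.3). Mir34a over Mir34b, both reported as p53 targets, was 6.81 (5.98 to 7.77) and 10.1 (8.66 to 12.0). Each of these ratios was higher in replicate 2, with intervals that do not overlap.

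Genes of like level were taken as those with the smallest distance in log2(CPM + 1) over the 2 libraries. For Mir34c these were Mir132 (629 and 2465 CPM, distance 0.29) and Mir107 (484 and 2285 CPM, distance 0.36). For Mir34a they were Mir540 (500 and 765 CPM) and Mir487b (513 and 719 CPM), and for Mir34b they were Mir378c (56.5 and 84.7 CPM) and Mir3068 (64.7 and 103 CPM). For Mir449a they were Mir450b (80.1 and 55.8 CPM) and Mir380 (83.9 and 63.5 CPM). With 2 libraries, likeness covers a level and a single ratio only.

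Other microRNAs reported to be tied to p53 were listed as context, 21 genes in all. Of these, 18 had at least 10 counts in both libraries, of which the binomial test called 9 toward replicate 2, 5 toward replicate 1 and left 4 uncalled, against the 39.3% and 38.7% of all genes given above. Their median log2 ratio was 0.32, beside 0.01 over all 333 genes and 0.56 over the 4 tested members. Of the 12 genes reported to be induced or processed with p53, 10 were tested, and 6 of these 10 were called toward replicate 2 and 3 toward replicate 1, beside the same 39.3% and 38.7% of all genes. Mir200c had 27.1 and 2734 CPM (log2 ratio 6.47) and its cluster partner Mir141 had 6.67 and 134 CPM (4.14). Both belong to the miR-200 markers above.

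Mir107, in a pantothenate kinase intron, had 484 and 2285 CPM (2.05). Mir145a had 1564 and 3998 CPM (1.17), whereas Mir143 of the same cluster had 45047 and 26224 CPM (-0.97). Mir22, a broadly expressed tumour suppressor microRNA, had 6910 and 15679 CPM (1.00), and Mir194-2 had 30.7 and 56.3 CPM (0.69). Mir16-1 and Mir15a, neighbours that repress cyclins and Bcl2, had 2203 and 688 CPM (-1.86) and 1376 and 1282 CPM (-0.29). Mir192, the cluster partner of Mir194-2, had 42.3 and 56.3 CPM (0.23) and was not called.

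Of the 5 microRNAs reported to act on the messenger RNA of p53 itself, Mir30d had 10791 and 16325 CPM (log2 ratio 0.41) and was called higher in replicate 2. Mir125b-1 had 254 and 205 CPM (-0.49) and Mir25 had 390 and 380 CPM (-0.22), both called higher in replicate 1, although the call of Mir25 was lost with library-size scaling (-0.04, exact binomial adjusted p = 0.576). Mir125b-2 had 177 and 216 CPM (0.11) and was not called. Of the 4 miR-29 genes, reported to raise p53 activity, Mir29a with 5085 and 8649 CPM (0.58) and Mir29c with 670 and 1410 CPM (0.89) were called higher in replicate 2. Mir29b-1 and Mir29b-2 had 21.4 and 19.2 CPM (-0.34) and 20.0 and 17.3 CPM (-0.39) and were not called. Mir215, Mir194-1 and Mir504 were below the minimum, with 22 and 5, 6 and 0, and 1 and 0 counts.

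The direction of Mir192 and Mir125b-2 turned with DESeq2 size factors (-0.03 and -0.15), and that of Mir29b-1 with the GC correction (0.08). Library-size scaling also brought Mir192 (0.41) and Mir125b-2 (0.29) past the threshold toward replicate 2, and the GC correction did so for Mir125b-2 (0.19). DESeq2 size factors brought Mir29b-1 (-0.59) and Mir29b-2 (-0.65) past it toward replicate 1. The genes with numbered copies in this list, Mir16-1, Mir125b-1, Mir125b-2, Mir29b-1, Mir29b-2, Mir194-1 and Mir194-2, have uncertain levels, since reads that fit several loci are outside the counts. Called genes lay on both sides in this list and in the family.

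**Figure D4:**
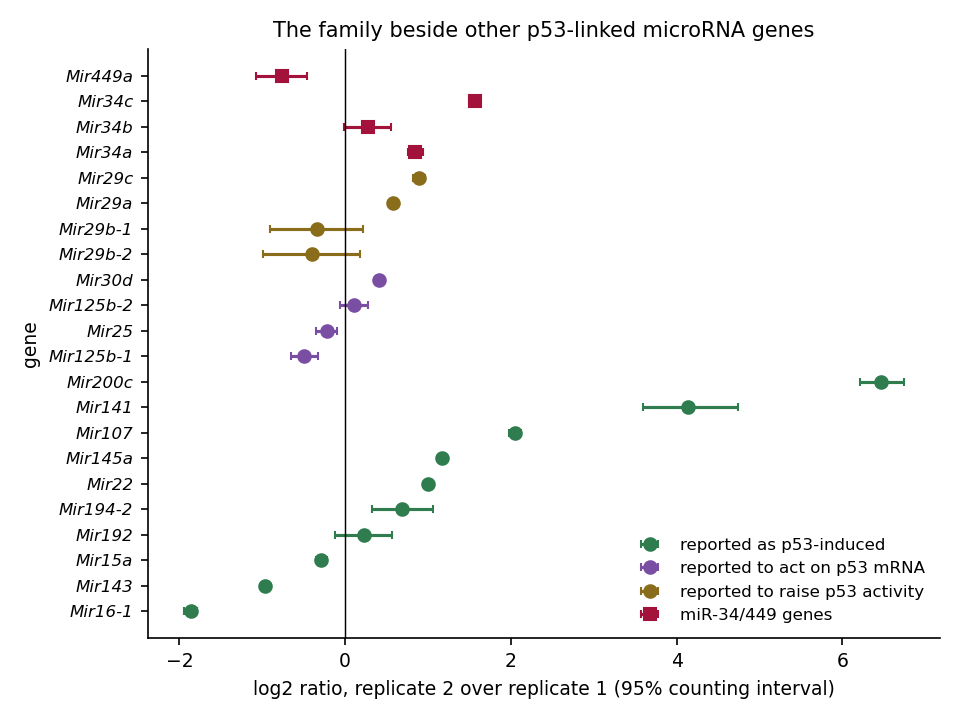
Log2 ratio of replicate 2 over replicate 1, with 95% counting intervals, of the 18 tested p53-linked genes (circles, coloured by reported role) and the 4 tested members (red squares). Mir200c (6.47) and Mir141 (4.14) lie far to the right of Mir34c (1.56), and Mir16-1 (-1.86) lies farthest to the left.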

How the data were processed

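Each deposited table gives raw counts of reads for every microRNA gene, in a strand-blind column and 1 column for each strand. The assembly was mm10 and the annotation GENCODE M21, per the deposited text; the tools for alignment and counting were not given in the sources used here. The sense column was used and scaled to a total of 1000000 (CPM). Reads that were unmapped (26.4% and 51.9% in replicates 1 and 2), mapped to several places (29.8% and 21.5%) or lay outside genes (7.16% and 6.46%) name no gene and were left out. Whether CAST/EiJ alleles changed the mapping was not tested.

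TMM factors came from genes that reached 10 counts in each library. Named were all members, the listed p53-linked genes above that minimum and the 2 genes of nearest level per member. The members and lists were chosen with earlier results of these data known. The binomial and Fisher tests were tried on simulated data first. Those data held counting noise only, so the trial did not cover the further spread between these libraries. Alternatives covered scaling, count minimum (5, 50, none), column, test, GC content, a total without Mirlet7b and leaving out each library. Software was R 4.3.3, edgeR 4.0.16, DESeq2 1.42.0, Python 3.11.15 and SciPy 1.17.1.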

Additional observations from a re-analysis of the deposited data

Results flagged for a closer look

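Mir34b had 5 reads on the opposite strand in replicate 1, in a column that the comparisons did not use and above the floor of 3 counts. Replicate 2 had 3. That strand is the strand of Btg4. The sense counts of Mir34b do not include these reads.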

How the results depend on the processing

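The sign of the log2 ratio of the 4 tested members held under every scaling, count minimum, count column and the GC correction tried. For Mir34b this sign means little, since its main interval was -0.01 to 0.56 and DESeq2 size factors left it at 0.02. The edgeR exact test called 0 members higher in replicate 2 and 0 higher in replicate 1, where the binomial test called 2 and 1, and its dispersion came from the same 2 libraries. The adjusted p of Mir34b ran from 0.00236 (library size) to 0.988 (edgeR). In the strand-blind column the counts of Mir34a, Mir34c and Mir449a were unchanged, and Mir34b had 271 and 172 counts against 266 and 169. The total of that column was smaller, which raised the mean CPM of each member that was counted. The means were 756 CPM for Mir34a, 87.9 for Mir34b, 1625 for Mir34c and 88.1 for Mir449a, and the family share was 0.256%. Leaving Mirlet7b out of the total of the sense column also raised them. The means were then 724 CPM for Mir34a, 82.0 for Mir34b, 1570 for Mir34c and 82.3 for Mir449a, with a family share of 0.246%. With 1 library left out, the family share ran from 0.115% to 0.299%, Mir34c over Mir34b from 10.2 to 25.0 and Mir449a over Mir449c from 60.0 to 193.5. Library-size scaling called 11 p53-linked genes toward replicate 2 and 4 toward replicate 1 (149 and 112 of all 333 genes), and DESeq2 size factors 9 and 7 (97 and 157 of all genes). A minimum of 10 counts for neighbouring pairs, added after seeing the data, kept the call of Mir34c over Mir34b. Depth limits Mir449b and Mir449c, and 2 libraries of 1 group allow no test of a condition.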
